A study of Mus musculus with 6 samples.

Results

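The 32 genes described here encode enzymes and regulators of sterol, fatty acid and sphingolipid synthesis. They were chosen by name, with earlier results of these data known: 14 act in sterol synthesis or its control, 12 in the synthesis, elongation and desaturation of fatty acids, and 6 in sphingolipids and skin-type barrier lipids. All 32 had a probe set, out of 18193 genes with one, and all 32 passed the filter on dim genes, which left 12735 genes. The samples were bladders of Get1 -/- (null) and Get1 +/- (heterozygous) mouse embryos at embryonic day 18.5, with 3 arrays of each genotype. Get1, also called Grhl3, encodes a transcription factor of the grainyhead-like family that acts in surface epithelia. The controls thus carried 1 disrupted copy, and no wild-type bladder was analysed here. The labels used here do not state how the allele was made, the strain, the sex, or whether bladders were pooled, so p-values measure the spread between these arrays only. The study asked which transcripts differ in a bladder that is defective without Get1.

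Cholesterol is built from acetyl-CoA through mevalonate, farnesyl diphosphate, squalene and lanosterol. Its enzymes are switched on together by the SREBP factors when membranes hold little sterol, and INSIG1 holds those factors back in the endoplasmic reticulum. Fatty acids are made by acetyl-CoA carboxylase and fatty acid synthase, then lengthened by the ELOVL elongases and given double bonds by the SCD and FADS desaturases. Sphingolipids join a fatty acid to a long-chain base as ceramide. In epidermis, elongase ELOVL4 and ceramide synthase CERS3 supply the very long ceramides of the water barrier. Grhl3 is known for its role in forming that barrier in the skin. The umbrella cells of the bladder carry a membrane rich in sterols and sphingolipids at the urine surface.

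Each array gave 1 signal per probe set, and levels are given as log2 of the deposited signal plus 16, so the lowest possible level is 4. Differences are null minus heterozygous on that scale, and adjusted p-values come from limma over all 12735 genes with the Benjamini-Hochberg method. Median signals over all probe sets lay between 58.2 and 72.4 on the 6 arrays. Heterozygous 6 was least like its group, with correlations of 0.941 and 0.943 to the other heterozygous arrays, which correlated at 0.969. It was the highest of the 6 arrays for 4097 and the lowest for 2928 of the 12735 genes. Among genes described below it was the highest for Elovl4, Elovl6 and Cers3, and the lowest for Fads2 and Smpd3. Grhl3 itself read 6.53, 5.23 and 7.08 on the null arrays, against 7.32, 7.22 and 7.15 on the heterozygous arrays. These groups did not overlap, but the difference of -0.95 did not pass the test (adjusted p = 0.655, limma), and where the probe set lies relative to the disruption is not given here. Smooth muscle and urothelial markers were present, with Acta2 at 15.17 ± 0.05 in null against 15.11 ± 0.18 in heterozygous bladders, and Upk1b at 12.33 ± 0.22 in null against 12.88 ± 0.37 in heterozygous bladders (mean ± SD of 3 arrays). Of 12 tested intestinal epithelial markers 9 passed the test with null higher, beside 0.448% of all genes tested (adjusted p under 0.05, limma). Of 7 umbrella cell markers 2 passed with null lower, beside 0.0628% of all genes tested. All 12 intestinal markers had differences above 0, and all 7 umbrella cell markers below 0. In bulk tissue, fewer cells of a type and less RNA per cell cannot be told apart.

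None of the 32 lipid genes passed the test over all genes, in either direction. Over all genes tested 0.448% were called higher and 0.0628% lower in null bladders, 0.51% in all. The smallest adjusted p among the 32 was 0.324 (Cers3, limma). At an unadjusted p under 0.05 there were 2 higher (Fa2h and Elovl7) and 2 lower (Cers3 and Elovl4), beside 3.63% and 4.3% of all genes tested, 7.93% in all. Of the 32, 21 had a difference above 0, beside 45.1% of all genes, and 11 below 0, beside 54.9%. Their median was 0.10 against -0.03 over all genes tested. The intervals leave room for moderate changes: their widest bounds were -1.67 (Elovl4) and 1.55 (Fa2h).

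**Figure D1:**
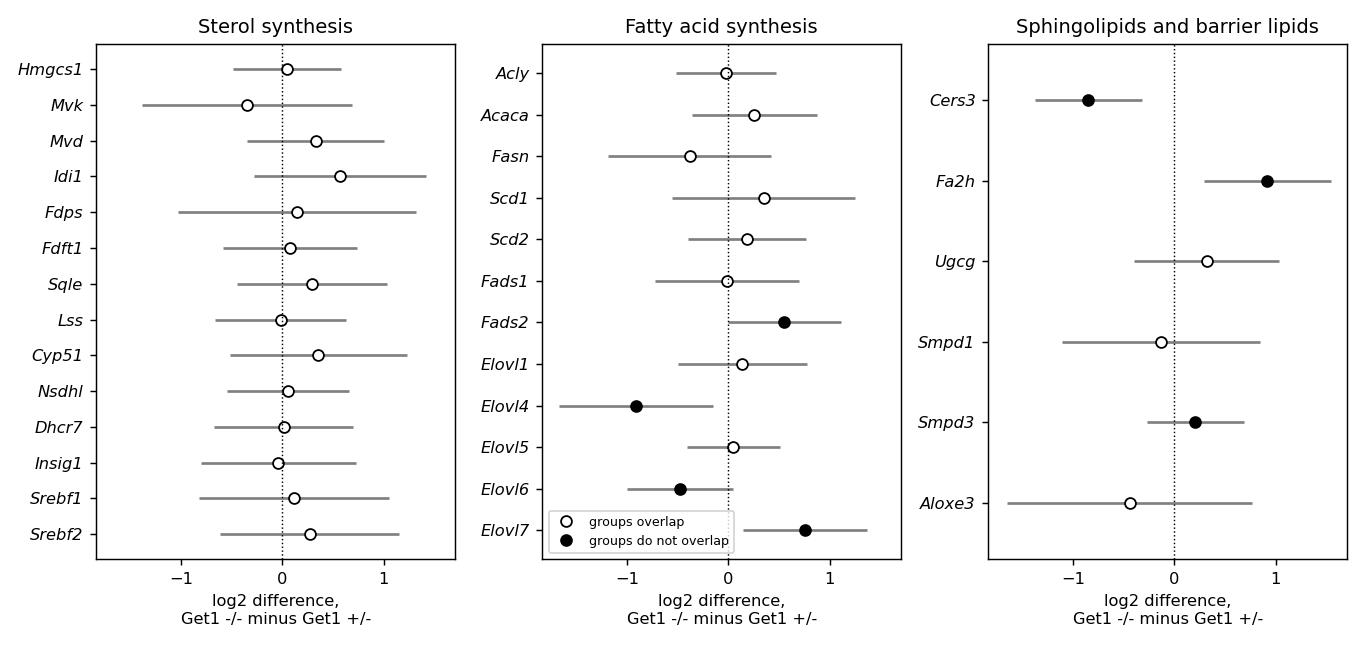
Log2 difference (null minus heterozygous, x axis) of each of the 32 genes with its 95% interval from limma (grey line), n = 3 arrays per genotype. Filled points mark genes whose 2 groups of arrays do not overlap. There are 0 among sterol genes, 4 among fatty acid genes and 3 among sphingolipid genes, beside 13.4% of all genes tested. Of the 32 genes, 12.5% were apart with null higher and 9.38% with null lower, beside 6.07% and 7.36% of all genes tested.

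The sterol genes spread widely among the null bladders, and none passed the test between the genotypes. Their differences ran from -0.35 (Mvk, mevalonate kinase) to 0.57 (Idi1, the isomerase that makes dimethylallyl diphosphate), with a median of 0.10. Groups are called apart where all null arrays lay on the same side of all heterozygous arrays. This held for 0 of the 14, beside 6.07% of all genes apart with null higher and 7.36% with null lower, 13.4% in all. The median of null 1 minus null 3 over the 14 genes was 0.99, beside -0.07 over all genes tested. This is a gap between single arrays that is not comparable with a difference of means. The median SD of the 14 was 0.57 over null and 0.35 over heterozygous arrays, beside 0.26 and 0.35 over all genes tested. On null 1, 13 of the 14 lay above their heterozygous mean, on null 2 10 did, and on null 3 1 did. Averaged over the 14 genes, the log2 level lay 0.52 above the heterozygous mean on null 1, 0.26 above it on null 2 and -0.38 from it on null 3, while the heterozygous arrays stood at 0.04, -0.10 and 0.05.

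**Figure D2:**
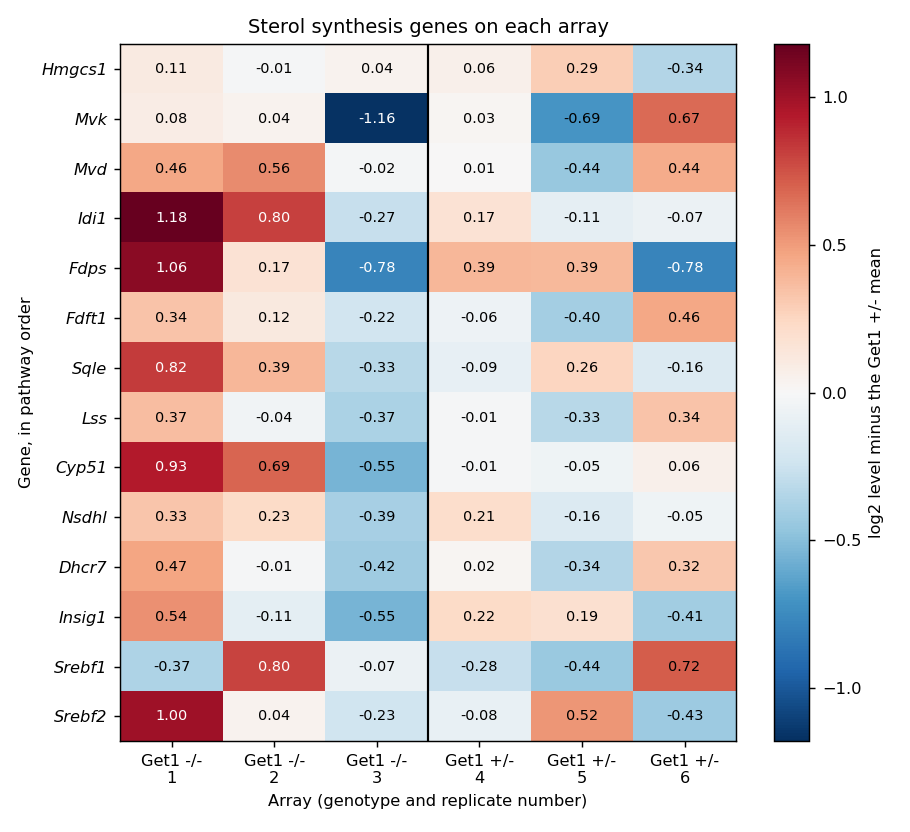
Log2 level of each sterol gene minus its heterozygous mean (colour and printed value), with 1 column per array, null arrays left of the line and heterozygous arrays right of it. Genes run in pathway order, with the regulators Insig1, Srebf1 and Srebf2 last. The column of null 1 lies above 0 for 13 of the 14 genes and that of null 3 for 1 of the 14.

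The enzymes between and after these steps showed small differences. Mvd, which makes isopentenyl diphosphate, differed by 0.33, Fdft1, the squalene synthase, by 0.08, and Sqle, the squalene epoxidase, by 0.30. Lss, which closes the rings of lanosterol, differed by -0.02, Nsdhl, which acts in removing its methyl groups, by 0.06, and Dhcr7, which reduces the last precursor to cholesterol, by 0.01. Over all 14 sterol genes the adjusted p ran from 0.778 to 0.997 (limma). Sqle read 10.59, 10.16 and 9.44 on the null arrays, against 9.68, 10.03 and 9.61 on the heterozygous arrays, so the null arrays lay on both sides.

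Some of these genes are given by array, chosen after their values were seen. Cyp51, the lanosterol demethylase, read 12.01, 11.77 and 10.53 on null 1 to null 3, against 11.07, 11.03 and 11.14 on heterozygous 4 to 6. The heterozygous arrays were nearly alike (SD 0.06, n = 3), and the null arrays lay on both sides of them (SD 0.79, n = 3). Idi1 read 12.83, 12.46 and 11.39 on the null arrays, against 11.83, 11.55 and 11.59 on the heterozygous arrays. Its null 1 level was 2.73-fold that of null 3, while the heterozygous SD was 0.15 (n = 3). Fdps, which makes farnesyl diphosphate, read 9.37, 8.47 and 7.52 on the null arrays, against 8.70, 8.69 and 7.53 on the heterozygous arrays, so null 3 and heterozygous 6 were both low. Insig1, the sterol-dependent brake on SREBP processing, read 13.78, 13.12 and 12.69 on the null arrays, against 13.46, 13.43 and 12.82 on the heterozygous arrays. Its means of 13.20 ± 0.55 in null and 13.24 ± 0.36 in heterozygous bladders differed by -0.04, with a 95% interval from -0.80 to 0.72 (mean ± SD of 3 arrays, limma adjusted p = 0.993).

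The same array order recurred along the pathway. In 11 of the 14 sterol genes null 1 was the highest and null 3 the lowest of the null arrays, which held for 14.8% of all genes tested. The exceptions were Hmgcs1, Mvd and Srebf1. Hmgcs1, the synthase that feeds the mevalonate pathway, was even across the null arrays at 14.90, 14.78 and 14.83, against 14.85, 15.08 and 14.45 on the heterozygous arrays. That probe set was its brightest. On all of its 4 dimmer probe sets null 1 was the highest and null 3 the lowest of the null arrays. The brightest of these, also for Hmgcs1, read 14.05, 13.71 and 13.27 on the null arrays, against 13.69, 13.24 and 12.91 on the heterozygous arrays. Its SD was 0.39 over null and 0.40 over heterozygous arrays. Srebf1, whose product mainly drives fatty acid synthesis, was highest on null 2 (10.22) and heterozygous 6 (10.14), and lay between 8.99 and 9.36 on the other arrays. Srebf2, whose product mainly drives sterol synthesis, read 11.71 on null 1 and between 10.27 and 11.22 on the other 5 arrays. The SD over null arrays exceeded that over heterozygous arrays in 10 of the 14, beside 36.5% of all genes tested. No test was made of this order, since it was noticed in these data.

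Other genes of the pathway showed the order less completely. Of 24 further sterol genes listed, 17 had a probe set, of which 16 passed the filter on dim genes and were tested. The other 7 were not analysed here. None of the 16 passed the test, with 13 differences above 0 and a median of 0.22. Null 3 was the lowest of the null arrays in 6 of the 16 (37.5%), beside 28.2% of all genes tested. Null 1 was the highest of the null arrays in 10 of the 16, beside 30.4% of all genes tested. In 5 of these null 3 was the lowest as well, beside 14.8% of all genes tested. These 5 were Tm7sf2, Lbr, Msmo1, Hsd17b7 and Stard4, and Msmo1 and Hsd17b7 spread most. Msmo1 read 11.26, 10.42 and 9.67 on the null arrays, against 10.06, 10.12 and 10.17 on the heterozygous arrays. For Hsd17b7 the levels were 10.83, 10.06 and 9.14, against 10.24, 10.29 and 9.43. Insig2, a relative of Insig1, had a difference of 0.57, Stard4, a sterol carrier, 0.48, Ebp, a sterol isomerase, 0.28, and Abca1, a cholesterol exporter, -0.39 (adjusted p from 0.789 to 0.82, limma). The average of the 17 with a probe set stood 0.34 above the heterozygous mean on null 1, and 0.11 and 0.09 above it on null 2 and null 3. On the heterozygous arrays it ranged from -0.21 to 0.22.

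**Figure D3:**
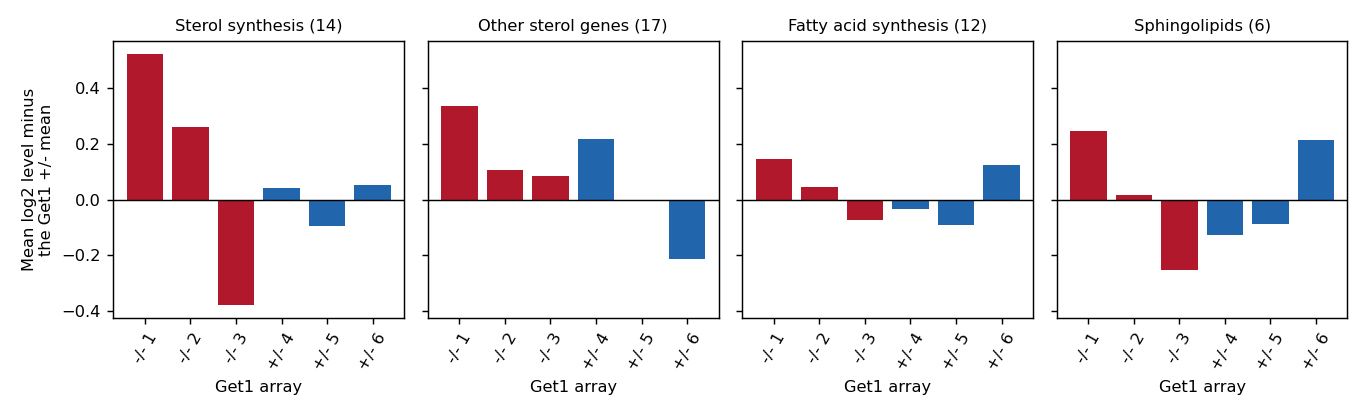
Mean log2 level of each gene list minus its heterozygous mean (y axis) on each array (x axis), null arrays in red and heterozygous arrays in blue, with the number of genes in brackets. For the 14 sterol genes null 1 stands at 0.52 and null 3 at -0.38, while the 3 heterozygous arrays lie between -0.10 and 0.05.

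Null 1 is also the only array whose title carries 1 as its first number, the other 5 carrying 2, and the meaning of that number is not given. Without null 1, 6 of the 14 sterol differences were above 0 and their median was -0.07. Without null 3, 14 of 14 were above 0 and the median was 0.25. On the same arrays the intestinal markers stood on average 2.51, 3.45 and 3.57 above the heterozygous mean on null 1, null 2 and null 3. The smooth muscle markers stood at 0.48, 0.39 and 0.27, and the umbrella cell markers at -1.81, -1.90 and -1.88. The medians of the umbrella cell markers were smaller, at -1.19, -0.69 and -1.17. Their differences between the genotypes reached -5.58, with a median of -0.68 over the 7. The summed signal of the 15 intestinal markers was 16088 to 26473 in null and 687 to 1392 in heterozygous bladders. That of the 7 umbrella cell markers was 8073 to 10690 in null and 13929 to 20601 in heterozygous bladders, and that of the 7 smooth muscle markers 155187 to 174868 in null and 124715 to 154700 in heterozygous bladders. The part of these cells in the sterol levels was not tested. The 4 markers of steroid-making cells summed to 199 to 258 in null and 81.8 to 258 in heterozygous bladders. Of these, Star and Cyp11a1 were tested and did not pass (adjusted p = 0.523 and 0.736, limma). Star was at 6.46 in null and 5.25 in heterozygous bladders, with groups apart, and Cyp11a1 at 7.30 in null and 6.32 in heterozygous bladders. The other 2 were dim, Hsd3b1 at 4.13 in null and 5.20 in heterozygous bladders, and Cyp17a1 at 4.21 in null and 4.58 in heterozygous bladders. The 8 fat cell markers with a probe set averaged -0.17, 0.57 and 0.40 from their heterozygous mean on null 1, null 2 and null 3, and summed to 9765 to 11977 in null and 9758 to 12519 in heterozygous bladders. The 2 tested, Fabp4 and Lpl, did not pass, and the other 6 were dim, among them the fat cell hormone Adipoq at 4.64 in null and 4.49 in heterozygous bladders.

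Promoter motifs, which had no part in the choice of genes, were also counted. RefSeq promoters (build GRCm38.p6) were at hand for 23 of the 32 genes, and the 250 bases before each start were searched on both strands. The CCAAT box, which the factor NF-Y binds beside SREBP in sterol genes, was present in 11 of 11 sterol genes with a promoter, beside 37.5% of 27025 genes. Counted by start, since Dhcr7 and Srebf1 have 3 each, it was in 12 of 15 windows beside 33.9% of all windows. It was found in 3 of 9 fatty acid genes and 1 of 3 sphingolipid genes, and among the further pathway genes in 11 of 18 sterol genes (61.1%), 15 of 23 fatty acid genes (65.2%) and 10 of 32 sphingolipid genes (31.2%), so it was not particular to sterol genes. A sterol regulatory element, TCACNCCAC, was found among the 23 genes in Hmgcs1 only, 1 of 11 sterol genes beside 1.22% of all genes. Among the further genes it was in 0 of 18 sterol, 2 of 23 fatty acid and 0 of 32 sphingolipid genes. The grainyhead-like element AACCNGTT was in 0 of the 23 promoters, beside 2.0% of all genes. A match is no evidence of binding, and a missing match speaks only of these letters in this window.

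Windows are printed for Hmgcs1, which holds both motifs, for Idi1 and Cyp51, which were tight among heterozygous arrays and spread among null arrays, and for Cers3, described further on, which holds none of the 3 motifs. Each reads 5′ to 3′ on the strand of the gene and ends at the base before the start. Capitals mark CCAAT or its reverse complement and, in Hmgcs1 alone, the sterol regulatory element.
Hmgcs1, chr13:119690101-119690350, plus strand: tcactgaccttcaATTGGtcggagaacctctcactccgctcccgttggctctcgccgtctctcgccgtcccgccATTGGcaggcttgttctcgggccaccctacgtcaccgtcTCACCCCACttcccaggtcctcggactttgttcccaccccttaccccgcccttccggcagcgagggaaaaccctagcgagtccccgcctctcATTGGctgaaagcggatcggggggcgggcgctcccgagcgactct
Idi1, chr13:8885356-8885605, plus strand: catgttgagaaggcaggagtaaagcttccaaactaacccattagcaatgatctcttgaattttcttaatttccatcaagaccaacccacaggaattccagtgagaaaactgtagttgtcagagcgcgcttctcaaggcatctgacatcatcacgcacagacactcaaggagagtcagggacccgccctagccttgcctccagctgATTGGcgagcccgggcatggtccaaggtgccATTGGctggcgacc
Cyp51, chr5:4104698-4104947, minus strand: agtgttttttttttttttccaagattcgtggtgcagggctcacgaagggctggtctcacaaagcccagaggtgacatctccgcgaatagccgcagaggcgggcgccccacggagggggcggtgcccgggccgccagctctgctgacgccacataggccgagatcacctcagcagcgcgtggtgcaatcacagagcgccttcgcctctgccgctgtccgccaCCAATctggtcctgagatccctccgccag
Cers3, chr7:66743254-66743503, plus strand: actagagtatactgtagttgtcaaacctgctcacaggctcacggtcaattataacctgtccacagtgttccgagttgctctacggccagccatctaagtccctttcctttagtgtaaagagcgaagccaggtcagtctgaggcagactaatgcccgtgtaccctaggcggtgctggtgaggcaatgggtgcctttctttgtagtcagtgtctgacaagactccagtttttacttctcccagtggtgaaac
The Hmgcs1 element lies at bases -137 to -129 before the start, between CCAAT boxes in reverse at -176 and -45, with a further one at -237. Those of Idi1 lie at -45 and -14, and the Cyp51 box, on the strand of the gene, at -29, each number giving the first base of the box. No 2 motifs overlapped in these windows.

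Among the fatty acid genes, 3 elongases and 1 desaturase had groups of arrays that did not overlap, in both directions. These were 4 of 12 genes: Elovl7 and Fads2 with null higher, beside 6.07% of all genes, and Elovl4 and Elovl6 with null lower, beside 7.36%. In either direction 13.4% of all genes tested were apart. The exact permutation p of each was 0.1, the smallest that 3 against 3 arrays allow, two-sided. Groups that do not overlap always give this value, so it adds no support. None passed over all genes (adjusted p from 0.521 to 0.675, limma). The median over the 12 was 0.09.

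Elovl4, the elongase of the very longest fatty acids, read 8.04, 8.96 and 8.88 on the null arrays, against 9.12, 9.57 and 9.93 on the heterozygous arrays. All null arrays were below all heterozygous arrays, and null 1 lay furthest away. The means were 8.63 ± 0.51 in null against 9.54 ± 0.41 in heterozygous bladders (± SD of 3 arrays), a difference of -0.91 with SE 0.33 (adjusted p = 0.536, limma). A second, dimmer probe set had a difference of -1.16, with overlapping groups. Elovl6, which lengthens palmitate to stearate, read 10.01, 10.04 and 9.66 on the null arrays, against 10.46, 10.13 and 10.54 on the heterozygous arrays. Null 2 and heterozygous 5 were only a little apart, and the difference was -0.47 with SE 0.23 (adjusted p = 0.675, limma).

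Elovl7, an elongase of long saturated chains, read 7.67, 8.26 and 8.55 on the null arrays, against 7.38, 7.45 and 7.39 on the heterozygous arrays. The heterozygous arrays were tight (SD 0.03, n = 3) and each null array lay above them, null 3 furthest, with a difference of 0.75 and SE 0.26 (adjusted p = 0.521, limma). Its further probe sets differed in sign: one, at 8.02 in null and 6.86 in heterozygous bladders, had a difference of 1.16 with groups apart, and another, dimmer, had -0.20. With all 6 probe sets averaged the difference was 0.40. Fads2, a desaturase at the entry to polyunsaturated fatty acids, read 12.81, 12.44 and 12.56 on the null arrays, against 12.40, 11.92 and 11.83 on the heterozygous arrays. Null 2 and heterozygous 4 nearly touched, and the difference was 0.55 with SE 0.24 (adjusted p = 0.627, limma). Its other probe sets had differences of 0.40 and 0.82, with overlapping groups.

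The core of fatty acid synthesis showed no such separation. Acly, which makes cytosolic acetyl-CoA, differed by -0.03, and its 95% interval ran from -0.52 to 0.47. Acaca, the carboxylase, differed by 0.26 (interval from -0.36 to 0.87), and Fasn, the synthase, by -0.38 (interval from -1.19 to 0.42). Fasn rested on heterozygous 6, at 9.72 against 8.36 to 8.86 on the other 5 arrays, and without that array its difference was -0.01. The desaturases Scd1, Scd2 and Fads1 differed by 0.35, 0.18 and -0.01, and the elongases Elovl1 and Elovl5 by 0.14 and 0.05 (adjusted p from 0.893 to 0.997, limma). In 3 of the 12 fatty acid genes, Acaca, Scd1 and Fads1, null 1 was the highest and null 3 the lowest of the null arrays, beside 14.8% of all genes. Scd1, an SREBP target, read 14.16, 13.28 and 12.94 on the null arrays, against 13.51, 13.33 and 12.49 on the heterozygous arrays.

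**Figure D4:**
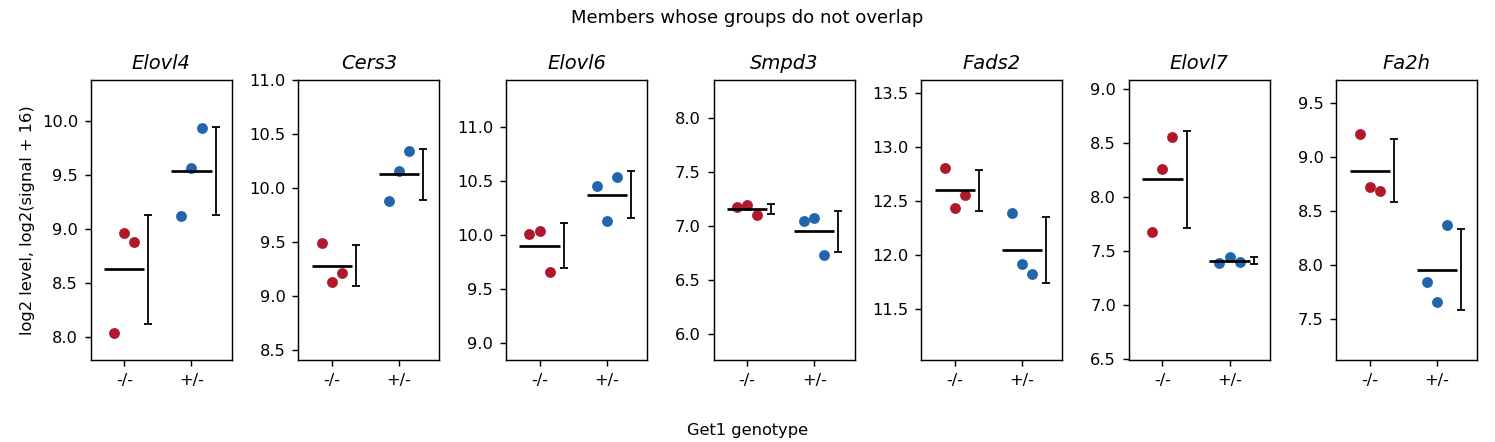
Log2 level on each array (points) of the 7 genes whose groups do not overlap, null left of heterozygous, with the mean (bar) and SD (whisker) of 3 arrays. Every panel spans the same log2 range. Cers3, at 9.28 ± 0.19 in null and 10.13 ± 0.24 in heterozygous bladders, had the smallest p of the 7.

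Of the 6 sphingolipid and barrier lipid genes, the groups were apart in 3, 2 with null higher and 1 with null lower. Over all genes tested these shares were 6.07% and 7.36%, 13.4% in all. The exact permutation p of each was 0.1, which groups apart always give with 3 against 3 arrays. Cers3, the ceramide synthase of very long chains, read 9.50, 9.13 and 9.22 on the null arrays, against 9.88, 10.16 and 10.35 on the heterozygous arrays. Every null array was lower, and the means, 9.28 ± 0.19 in null and 10.13 ± 0.24 in heterozygous bladders (3 arrays each, ± SD), differed by -0.85 with SE 0.23 (adjusted p = 0.324, limma). Fa2h, which adds the hydroxyl group of hydroxylated ceramides, read 9.22, 8.73 and 8.69 on the null arrays, against 7.85, 7.66 and 8.38 on the heterozygous arrays. Every null array was higher, by 0.92 on average with SE 0.27 (adjusted p = 0.399, limma), a 1.89-fold difference. Smpd3, a neutral sphingomyelinase, read 7.18, 7.20 and 7.10 on the null arrays, against 7.05, 7.08 and 6.74 on the heterozygous arrays. Its groups were apart by very little, and the difference was 0.21 (adjusted p = 0.877, limma).

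The remaining sphingolipid genes overlapped between the genotypes. Ugcg, the glucosylceramide synthase, differed by 0.32 (adjusted p = 0.876, limma), and a second probe set, at 7.66 ± 0.24 in null against 7.15 ± 0.10 in heterozygous bladders (mean ± SD of 3 arrays), had its groups apart. Smpd1, the lysosomal sphingomyelinase, differed by -0.13 (adjusted p = 0.975, limma). Aloxe3, a lipoxygenase that processes the ceramides of the epidermal envelope, was near the lowest level on null 3. It read 6.67, 5.84 and 4.50 on the null arrays, against 5.95, 5.77 and 6.60 on the heterozygous arrays, a difference of -0.44 (adjusted p = 0.902, limma). With an offset of 1 in place of 16 it was -0.82, with an offset of 64 it was -0.19, and without null 3 it was 0.14.

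Beyond these genes, 34 further sphingolipid and barrier lipid genes were listed, of which 32 had a probe set and 26 were tested. None passed over all genes, 13 differences were above 0 and 13 below, and the median was 0.00. Sptlc3, a subunit of serine palmitoyltransferase, the enzyme that starts sphingolipid synthesis, had the smallest p of these, with 6.80, 6.63 and 7.67 on the null arrays, against 8.91, 8.39 and 8.27 on the heterozygous arrays. All null arrays were lower, with a difference of -1.49 and SE 0.33 (adjusted p = 0.206, limma). Sptlc1 and Sptlc2, which encode other subunits of that enzyme, differed by 0.00 and 0.21. Sphk1, which makes sphingosine phosphate, had a difference of -0.77 with groups apart, and Degs2, a ceramide desaturase and hydroxylase, 0.85 with groups apart (adjusted p = 0.502 and 0.558, limma). Sgms1, a sphingomyelin synthase, had 0.58 (adjusted p = 0.678, limma). Of 26 further fatty acid genes 24 had a probe set, 20 were tested and none passed, with a median of -0.03. There Acss2, which makes acetyl-CoA from acetate, had 0.65 with groups apart, Acsl5, an acyl-CoA synthetase of intestine and liver, 0.35 with groups apart, Dgat1, a triglyceride synthase, -0.58, and Gpam, which starts glycerolipid synthesis, -0.27 (adjusted p from 0.629 to 0.87, limma).

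Skin, urothelial and gut markers are given here for the same arrays. The 6 epidermal markers averaged -0.79, -0.63 and -0.85 from their heterozygous mean on null 1, null 2 and null 3. Their summed signal was 1058 to 1705 in null and 1666 to 2600 in heterozygous bladders, and 0 of the 4 tested passed. Flg and Krt2 were below the dim level, at 4.17 and 4.22 in null and 5.11 and 5.29 in heterozygous bladders. The other 4, Krt1, Krt10, Lor and Ivl, were above the dim level, and all had differences below 0, with a median of -0.63. The 7 markers of basal and intermediate urothelium averaged 0.71, 0.56 and 0.88 above their heterozygous mean on null 1, null 2 and null 3, and summed to 11958 to 14363 in null and 7495 to 10186 in heterozygous bladders. None of the 6 tested passed. Of these, 3, Krt15, Shh and Lama3, had groups apart with null higher (differences of 0.73, 1.00 and 1.23), beside 6.07% of all genes tested. The intestinal markers were high and the umbrella cell markers low on the null arrays, as given above. The part of these cells in the levels of Cers3, Elovl4, Sptlc3, Fa2h, Fads2 and Elovl7 was not tested.

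Further probe sets gave a partial check of the 32 genes. Of 46 further probe sets 30 lay above the dim level, and 24 of these 30 had the same sign as the probe set used. The 6 opposite ones belonged to Mvk, Mvd, Lss, Scd1, Fads1 and Elovl7. For 6 genes, Mvd, Fdft1, Lss, Acly, Elovl1 and Elovl5, the name of the probe set used marks a possible match to other transcripts.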

How the data were processed

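RNA of 6 bladder samples was measured on Affymetrix arrays. The authors deposited 1 intensity per probe set and array, on a linear scale. The submitters' processing notes name PLIER 2.0 and Affymetrix Expression Console 1.1 without their roles. No source used here states the background step or how arrays were normalized. The labels describe a whole-transcript sense-strand kit, while the probe set names follow arrays usually hybridised with antisense RNA, and which was used could not be settled.

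Of 45101 probe sets, 34945 had exactly 1 gene symbol in the platform annotation, and a gene was represented by its probe set of highest mean over the 6 arrays. Values were taken as log2(value + 16), so folds of dim genes are understated. The 30% of genes with the lowest mean (under 5.80) were left out. Groups and numbers came from the sample titles. Genotypes, with 3 arrays each, were compared by the moderated test of limma 3.58.1 under R 4.3.3 (lmFit, eBayes, two-sided, Benjamini-Hochberg, threshold 0.05), and the script was tested on simulated data. Single genes also had an exact permutation test. The number of arrays limits the precision. Alternatives were offsets of 1 and 64, other filters, averaged probe sets, quantile normalization, centring, trended and robust variances, array weights, and leaving out each array. Members and lists were chosen with earlier results of these data known. By rule, array values are given for members that were called or whose groups do not overlap. Further pathway lists name, also by rule, up to 4 genes with the smallest p. The sterol genes, Aloxe3 and Scd1 shown by array, and Sptlc1 and Sptlc2, were chosen after their values were seen. So were the further sterol genes named for their array order.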

Additional observations from a re-analysis of the deposited data

How the results depend on the processing

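In 15 alternative fits 0 of the 32 lipid genes passed the test over all genes, and the lowest adjusted p of any of them was 0.160 (Fa2h with array weights, limma). A total of 15 genes kept the sign of their difference in every alternative that tested them. Cers3, Fa2h, Elovl4, Elovl6, Elovl7, Fads2 and Smpd3 were among them, the genes whose groups do not overlap. Such groups cannot change sign when 1 array is left out, so for these genes that part was fixed beforehand. With the lowest 50% of genes left out, Smpd3 and Aloxe3 were not tested. Over all genes the counts of 57 higher and 8 lower became 35 and 5 with an offset of 1, and 5 were lower with the lowest 50% left out. With 1 array left out they ranged from 38 to 54 and from 5 to 9, with 5 lower without null 2 or heterozygous 5, and 38 higher without null 3. Without 1 array the list medians ranged from -0.07 to 0.25 (sterol), 0.02 to 0.20 (fatty acid) and -0.08 to 0.19 (sphingolipid).

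Some differences changed sign, and the cause was not tested. With probe sets averaged these were Mvk (0.023), Fdps (-0.0024), Lss (0.084) and Fads1 (0.22), and with quantile normalization Dhcr7 (-0.0049). With arrays centred they were Lss (0.039), Insig1 (0.015), Acly (0.028) and Fads1 (0.041). With array weights they were Hmgcs1 (-0.064), Fdps (-0.30), Nsdhl (-0.042), Scd1 (-0.0096), Fads1 (0.082), Elovl5 (-0.0037) and Smpd1 (0.27). Leaving out 1 array gave both signs for Hmgcs1 (-0.12 to 0.19), Mvk (-0.69 to 0.063), Fdps (-0.31 to 0.62), Fdft1 (-0.12 to 0.31), Lss (-0.21 to 0.16), Nsdhl (-0.080 to 0.28), Dhcr7 (-0.21 to 0.23), Insig1 (-0.33 to 0.22), Srebf1 (-0.22 to 0.48), Srebf2 (-0.095 to 0.53), Acly (-0.11 to 0.073), Fads1 (-0.15 to 0.23), Elovl1 (-0.037 to 0.35), Elovl5 (-0.026 to 0.10), Smpd1 (-0.37 to 0.33) and Aloxe3 (-0.94 to 0.14). The labels used here do not state whether any null and heterozygous embryos form pairs, so no paired analysis was made.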
